A study of Oryza sativa with 8 samples.

Results

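The rice phosphate transporter genes PT1, PT2, PT3, PT4, PT6, PT8 and PHO1;2, and the regulator gene PHO2, were followed through 8 leaf RNA-seq libraries. The 8 genes were taken by gene identifier, which both deposited tables list, out of 43019 genes present in either table. PT1 and PT8 together carried 67.3% (DJ_CK) to 100% (glk1glk2_LP) of the summed leaf signal of their transporter family, each end from a shallow library. Both rose on low phosphate in the wild type DJ and in the dgp1 mutant, with PT1 reaching 370.1 FPKM in dgp1, and both fell in the cultivar ZH11 without phosphate. Measured PHO2 levels lay between 11.5 and 19.02 FPKM in the 6 libraries that share a table, the glk1glk2 ones from shallow libraries. PT2, PT3 and PT6 were at or near 0.

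PT1 to PT8 belong to the PHT1 family, proton-coupled carriers of the plasma membrane that take up inorganic phosphate and move it between organs. PHO1 proteins release phosphate from cells, in particular into the xylem that feeds the shoot. PHO2 is a ubiquitin-conjugating enzyme that limits the amount of PHT1 and PHO1 proteins, and the microRNA miR399 lowers its transcript during phosphate starvation. The transcription factor PHR2 activates many of the starvation genes of rice, and SPX proteins hold it back while phosphate is plentiful. In the leaf these carriers serve the distribution of phosphate between old and young tissue.

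All libraries came from leaves of rice (Oryza sativa) seedlings raised for 2 weeks at 26 °C with 13 h of light. The seedlings grew in glass tubes on solid Murashige and Skoog medium at 0.5 strength. The dgp1 mutant on low phosphate (dgp1_LP, 10 µM KH2PO4 for 6 days) and under normal supply (dgp1_CK), the glk1glk2 double mutant in the same 2 states (glk1glk2_LP, glk1glk2_CK) and their wild type DJ (DJ_LP, DJ_CK) share 1 table of 6 libraries. The wild type ZH11 without phosphate for 24 h (ZH11_NP) and under normal supply (ZH11_CK) has a table of its own. GLK1 and GLK2 are transcription factors that activate chloroplast genes, and the DGP1 protein is known to hold GLK factors back. The sources used here state neither the alleles nor how many mutant lines or plants went into a library.

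Each group is 1 library, so the differences below have no replicate check and no p-value, and they compare libraries rather than conditions. Levels are FPKM, read numbers scaled for gene length and library size, as the authors' tables give them. A gene was called higher or lower where FPKM + 1 differed at least 2-fold and 1 of the 2 libraries reached 5 FPKM. Values in parentheses after a ratio or a fold are 95% intervals from counting error alone. They rest on the estimated number of cDNA fragments, the reads divided by the most frequent low read number per gene. The libraries held 12525772 to 16566008 reads on genes, but estimated fragments ran from 76923 in glk1glk2_CK, 82952 in glk1glk2_LP and 286921 in DJ_CK to 757467 in dgp1_CK, 2761001 in DJ_LP and 15857155 in dgp1_LP. No such read number was found for dgp1_LP, ZH11_NP and ZH11_CK, where reads stand for fragments and the intervals are best cases. The deposited values and values scaled to each library's own reads differ in their centre. That scaling moved the median log2 ratio of all genes by 0.37 for DJ_LP over DJ_CK, 0.12 for dgp1_LP over dgp1_CK, -0.26 for dgp1_CK over DJ_CK, 0.37 for glk1glk2_CK over DJ_CK and -0.51 for dgp1_LP over DJ_LP.

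Leaf markers were present in every library. The summed level of 6 leaf genes (RBCS3, RBCS5, CAB1R, CAB2R, LHCB5 and PSAD) was 47691 FPKM in dgp1_LP, 39787 in dgp1_CK, 4087 in glk1glk2_LP, 5447 in glk1glk2_CK, 9403 in DJ_LP and 19771 in DJ_CK. RBCS5 was at 0 in both glk1glk2 libraries. The summed level of 7 root genes ran from 12.2 to 69.8 FPKM, nearly all of it from the silicon channel gene LSI1, and LSI2 and NRT2.1 were at 0 in all 8 libraries. GLK1 stood at 49.3 FPKM in glk1glk2_LP and 40.9 in glk1glk2_CK, against 129.6 in DJ_LP and 179 in DJ_CK. GLK2 stood at 53.0 and 32.2 FPKM in the 2 glk1glk2 libraries, against 86.9 and 96.2 in the same DJ libraries. The DGP1 transcript was not analysed here. In bulk leaf RNA, fewer cells of a type and less RNA per cell cannot be told apart.

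PT1 (Os03g0150600, chromosome 3, 2807616 to 2809540, minus strand in the tables' build) is the PHT1 gene known in rice for steady uptake and for carrying phosphate to the shoot, expressed in roots and leaves. Its level was 370.1 FPKM in dgp1_LP and 17.3 in dgp1_CK, 39.5 in glk1glk2_LP and 47.2 in glk1glk2_CK, and 70.9 in DJ_LP and 24.1 in DJ_CK. In the separately normalized table it was 31.1 FPKM in ZH11_NP and 80.9 in ZH11_CK. The dgp1_LP library stands far above the other 5 of its table, and there PT1 ranked 302 of 25440 genes with reads. Down the order of levels the next neighbour, DJ_LP, was 5.22-fold below dgp1_LP (4.76 to 5.74). From DJ_LP through glk1glk2_CK, glk1glk2_LP and DJ_CK to dgp1_CK, each lay within counting error of the next one. Libraries further apart in that order could still differ, as DJ_LP was 2.94-fold above DJ_CK (1.69 to 5.62). The glk1glk2 values rest on 8.13 estimated fragments in LP and 8.74 in CK, so PT1 could be known there only to between 17.2 and 77.4 FPKM and between 21.3 and 90.4 FPKM.

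PT8 (Os10g0444700, chromosome 10, 16035405 to 16038231, minus strand) is a high-affinity PHT1 carrier active in both roots and shoots of rice. It stood at 22.7 FPKM in dgp1_LP and 10.5 in dgp1_CK, 81.4 in glk1glk2_LP and 58.8 in glk1glk2_CK, and 25.7 in DJ_LP and 6.91 in DJ_CK. In ZH11_NP it was 5.24 FPKM and in ZH11_CK 12.04. Here the glk1glk2 libraries are the high ones, in either phosphate state, and DJ_CK is the lowest of the 6. The level in glk1glk2_CK exceeded that in DJ_LP 2.29-fold (1.26 to 3.85), and the level in dgp1_LP exceeded that in dgp1_CK 2.16-fold (1.33 to 3.75). The other 3 neighbours in the order did not differ beyond counting error. The DJ_CK value rests on 5 estimated fragments and could lie between 2.24 and 16.1 FPKM.

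PHO2, which the tables name LTN1 (LEAF TIP NECROSIS 1; Os05g0557700, chromosome 5, 27740218 to 27749525, minus strand), had the narrowest spread of the genes with signal. It was 17.2 FPKM in dgp1_LP and 16.1 in dgp1_CK, 16.2 in glk1glk2_LP and 16.1 in glk1glk2_CK, and 11.5 in DJ_LP and 19.02 in DJ_CK. In ZH11 it was 22.4 FPKM in NP and 14.8 in CK. The highest of the 6 levels was 1.66 times the lowest, against 21.4 times for PT1 and 11.8 times for PT8. These compare measured values, and the glk1glk2 ones rest on 7.37 estimated fragments in LP and 6.61 in CK. PHO2 could be known there only to between 6.69 and 32.7 FPKM in LP and between 6.27 and 33.9 in CK. No neighbours in the order of levels differed beyond counting error, but some libraries further apart did. DJ_LP stood at 0.602 times the level of DJ_CK (0.385 to 0.987), and dgp1_LP at 1.503 times that of DJ_LP (1.28 to 1.78). Under own read totals the log2 ratios were -0.31 for DJ_LP over DJ_CK and 0.04 for dgp1_LP over DJ_LP. Scaled to own read totals the highest level was 1.65 times the lowest, with glk1glk2_LP at 20.8 FPKM as the highest and dgp1_CK at 12.6 FPKM as the lowest.

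**Figure D1:**
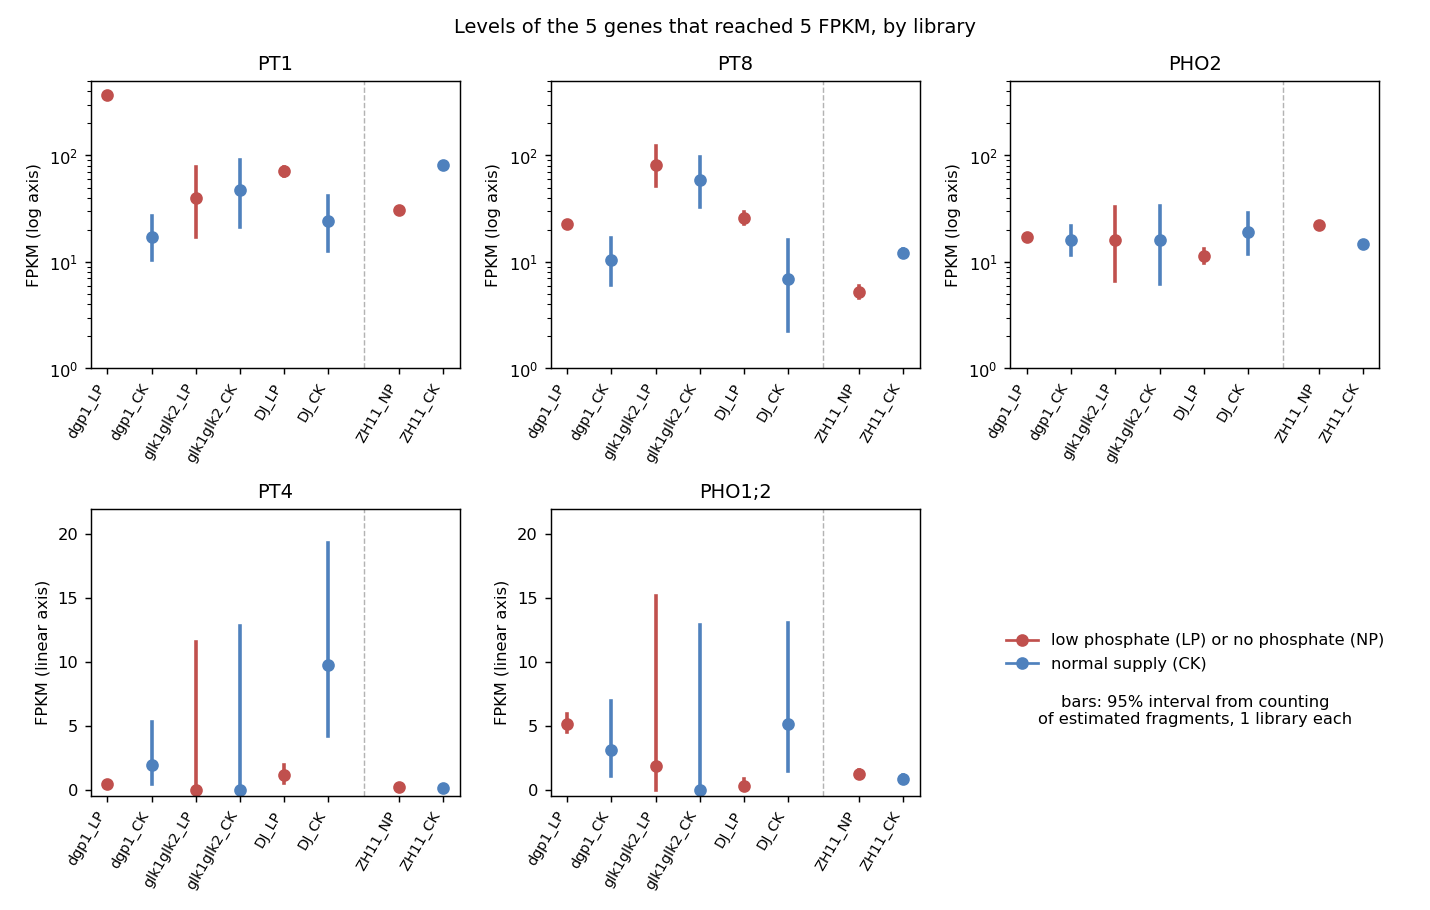
FPKM of PT1, PT8 and PHO2 (log axes) and of PT4 and PHO1;2 (linear axes) in each library, with red for low or no phosphate, blue for normal supply, bars for the 95% counting interval, and a dashed line between the separately normalized tables. PT1 peaks in dgp1_LP at 370.1 FPKM, PT8 in glk1glk2_LP at 81.4 FPKM, and PHO2 lies between 11.5 and 19.02 FPKM in the 6 libraries left of the line.

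PT4 (Os04g0186400, chromosome 4, 5846286 to 5849272, plus strand), a PHT1 gene known in rice from roots and the embryo, reached 5 FPKM in 1 library only. Its level was 0.420 FPKM in dgp1_LP and 1.93 in dgp1_CK, 0 in both glk1glk2 libraries, 1.119 in DJ_LP and 9.77 in DJ_CK. In ZH11_NP it was 0.215 FPKM and in ZH11_CK 0.148. DJ_CK was the high library, with 7.92 estimated fragments. The 0 in glk1glk2_LP and glk1glk2_CK allows up to 9.39 and 10.4 FPKM, the level of 3 fragments, so a level like that of DJ_CK was barely detectable there.

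PHO1;2 (Os02g0809800, chromosome 2, 34609725 to 34615015, plus strand) is the rice PHO1 gene known for loading phosphate into the xylem of roots and for phosphate export in nodes and grains. It stood at 5.16 FPKM in dgp1_LP and 3.10 in dgp1_CK, 1.83 in glk1glk2_LP and 0 in glk1glk2_CK, and 0.260 in DJ_LP and 5.19 in DJ_CK. In ZH11_NP it was 1.198 FPKM and in ZH11_CK 0.827. The low library in DJ is the LP one, while dgp1_LP matches DJ_CK. The value in glk1glk2_LP is less than 1 estimated fragment (0.583) and the 0 in glk1glk2_CK allows up to 10.5 FPKM. The antisense gene of PHO1;2, Os02g0809700, was listed at 0 in all 8 libraries.

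PT2 (Os03g0150800, chromosome 3, 2815502 to 2817322, minus strand), the low-affinity carrier of the root stele in rice, had signal in dgp1_CK alone, 1.54 FPKM from 1.67 estimated fragments. PT3 (Os10g0444600, chromosome 10, 16027967 to 16029114, plus strand) and PT6 (Os08g0564000, chromosome 8, 28244202 to 28246028, plus strand) were at 0 in all 8 libraries. PT6 is known as a high-affinity carrier of rice roots and shoots. In dgp1_LP a count of 0 allows up to 0.122 FPKM for PT2, 0.193 for PT3 and 0.121 for PT6. In glk1glk2_CK, the shallowest library, it allows up to 17.1, 27.1 and 17.1 FPKM for the same genes, so there the absence of reads says little.

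PT1 and PT2 are neighbours on chromosome 3 with 5961 bases and 1 gene between them, and PT12 lies 1674 bases from PT1. PT3 and PT8 are neighbours on chromosome 10 with 6290 bases and no gene between them. Of these clusters PT1 and PT8 had at least 5.24 FPKM in every library, and PT2, PT3 and PT12 did not exceed 1.54 FPKM in any. PHT1 genes are alike in sequence, and how reads that match several genes were assigned is not given in the sources used here, so the split between such neighbours is uncertain. Genes on the opposite strand overlap PT2, PT3, PT4 and PT8 in the annotation of the tables. They were at 0 in every library, except for 0.0971 FPKM of the gene opposite PT3 in ZH11_CK. The library kit marks the strand, but the strand setting of the counting is not given.

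Within the 13 PHT1 genes of the tables, PT1 and PT8 together made up 99.6% of the summed FPKM in dgp1_LP and 80.8% in dgp1_CK, 100% in glk1glk2_LP and 94.6% in glk1glk2_CK, 98.5% in DJ_LP and 67.3% in DJ_CK, and 98.9% in ZH11_NP and 99.7% in ZH11_CK. The glk1glk2 shares are limited by depth, since in glk1glk2_LP 3 estimated fragments stand for 9.39 FPKM of PT4 and 24.4 FPKM of PT3. The rest in DJ_CK came from PT4, with 7.92 estimated fragments, and PT5. PT5, a PHT1 gene on chromosome 4 next to PT4, stood at 5.31 FPKM in DJ_CK from 2.48 estimated fragments and at 0.225 FPKM in DJ_LP. PT7, PT9 and PT13 were at 0 in all 8 libraries.

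The ratio of PT1 to PT8 is taken within a library, so no scaling between libraries enters it. It was 16.3 in dgp1_LP (15.2 to 17.5) and 1.64 in dgp1_CK (0.811 to 3.36). In glk1glk2 it was 0.485 in LP (0.189 to 1.12) and 0.803 in CK (0.306 to 1.97). In DJ it was 2.76 in LP (2.36 to 3.25) and 3.50 in CK (1.16 to 12.6). In ZH11 it was 5.93 in NP (5.15 to 6.85) and 6.72 in CK (6.11 to 7.41). The interval lies above 1 in dgp1_LP and in both libraries of DJ and of ZH11, and it includes 1 in dgp1_CK and in both glk1glk2 libraries. The intervals of the LP and CK ratios do not overlap in dgp1 and do overlap in glk1glk2, DJ and ZH11.

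**Figure D2:**
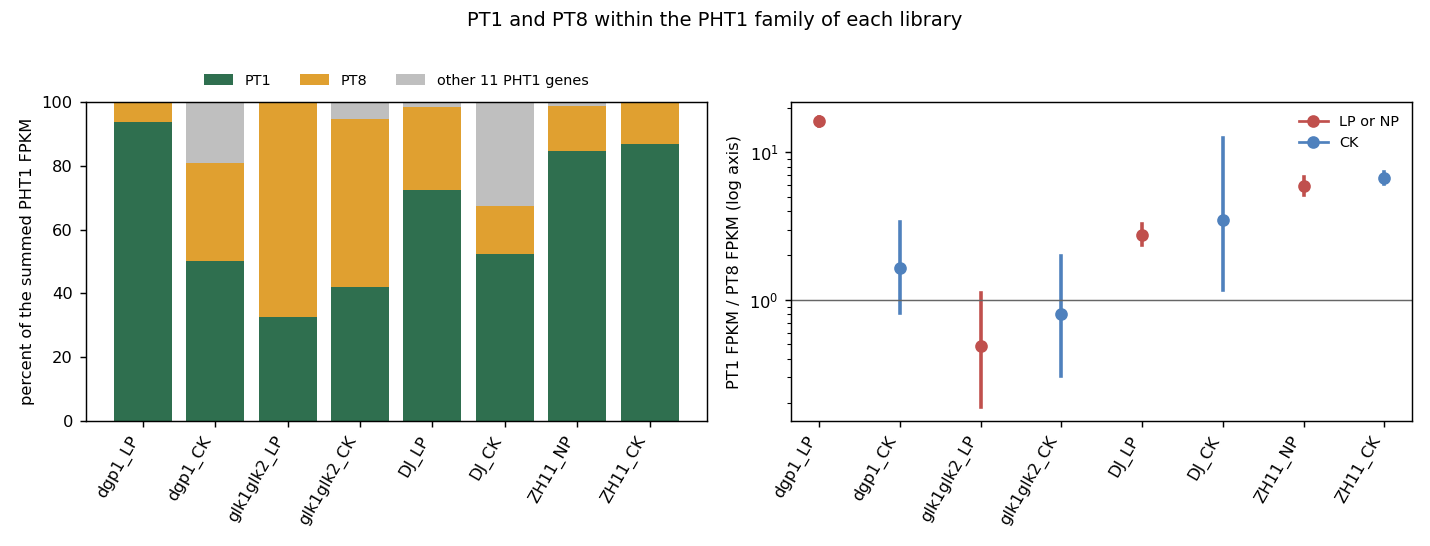
Left, the percent of the summed FPKM of 13 PHT1 genes that came from PT1 (green), PT8 (orange) and the other genes (grey) in each library. Right, the ratio of PT1 to PT8 FPKM in each library on a log axis with its 95% counting interval, from 0.485 in glk1glk2_LP to 16.3 in dgp1_LP.

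In dgp1, PT1 and PT8 rose on low phosphate. PT1 was 21.4-fold higher in dgp1_LP than in dgp1_CK (13.8 to 35.3) and PT8 2.16-fold higher (1.33 to 3.75). With a pseudocount of 5 the PT8 call is lost, at a log2 ratio of 0.84. PHO1;2 at 1.66 times (0.727 to 4.87) and PHO2 at 1.07 times (0.780 to 1.497) passed the minimum level and were not called. The other 4 genes stayed under 5 FPKM in both libraries. In all, 2 of the 4 genes tested were called, beside 44.7% of all 15600 genes tested (24.0% higher and 20.7% lower), so the count is near the background. The size for PT1 is far out in the distribution, with 97.9% of tested genes at a lower ratio. The median log2 ratio of the 4 genes was 0.81, against 0.03 for all tested genes. The root marker sum was 34.8 FPKM in dgp1_LP and 53.6 in dgp1_CK, and its part in these differences was not tested.

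In glk1glk2 no call was made. PT1 in glk1glk2_LP was 0.837 times its level in glk1glk2_CK (0.281 to 2.46), PT8 1.39 times (0.695 to 2.85) and PHO2 1.00 times (0.303 to 3.40). Thus 0 of 3 genes tested were called, against 46.4% of all 15007 genes tested (23.3% higher and 23.1% lower). With 6.61 to 23.3 estimated fragments behind each value, changes of up to about the upper bounds of these intervals were not detectable at this depth.

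In DJ, PT1 was 2.94-fold higher in DJ_LP than in DJ_CK (1.69 to 5.62) and PT8 3.71-fold higher (1.57 to 11.5). PT4 was 8.73-fold lower (3.06 to 23.6) and PHO1;2 19.9-fold lower (3.32 to 151), the second with 2.67 estimated fragments in DJ_LP and 4.19 in DJ_CK. The call for PHO1;2 rests on a DJ_CK level just over the minimum of 5 FPKM, and it is lost when values are scaled to own read totals (4.90 FPKM) or with a pseudocount of 5. PHO2 stood at 0.602 times its DJ_CK level (0.385 to 0.987), under 2-fold and not called. In all, 4 of 5 genes tested were called, 2 in each direction, against 47.4% of all 15357 genes tested (23.1% higher and 24.3% lower). Among all called genes 48.8% were higher, and 64.7% when values were scaled to own read totals. The root marker sum was 25.2 FPKM in DJ_LP and 69.8 in DJ_CK, and RCC3 was detected in DJ_CK alone, at 6.55 FPKM. For scale, 3 fragments of a 1-kb gene stand for 11.1 FPKM in DJ_CK. The part of these markers in the lower PT4 and PHO1;2 levels of DJ_LP was not tested.

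In ZH11, 24 h without phosphate, the direction was the opposite. PT1 was 2.61-fold lower in ZH11_NP than in ZH11_CK (2.42 to 2.81) and PT8 2.2995-fold lower (1.97 to 2.69). With a pseudocount of 5 the PT8 call is lost, at a log2 ratio of -0.74. PHO2 was 1.51 times as high (1.39 to 1.63) and not called. The other 5 genes were under 5 FPKM in both libraries. Thus 2 of 3 genes tested were called, both lower, while 4.81% of all 15002 genes tested were called in either direction, 1.61% higher and 3.19% lower. Only 1.66% of tested genes had a lower ratio than PT1 and 2.71% a lower one than PT8, while 94.1% had a lower one than PHO2. This pair differs from the others in cultivar, phosphate level and duration, and these cannot be told apart.

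**Figure D3:**
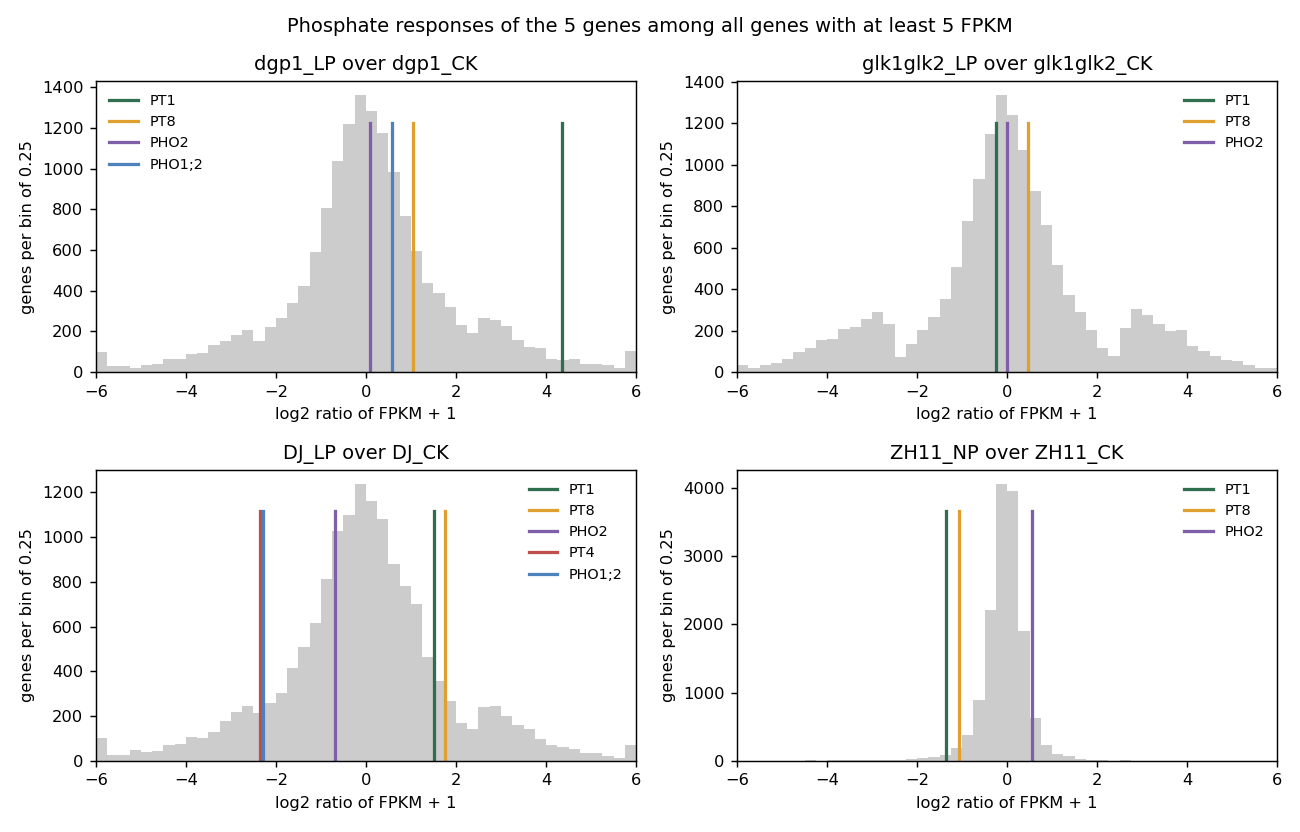
Grey bars count all genes with at least 5 FPKM by the log2 ratio of FPKM + 1 for low or no phosphate over normal supply, in dgp1, glk1glk2, DJ and ZH11 (values beyond 6 sit in the end bins), and lines mark the phosphate genes tested. PT1 lies at 4.34 in dgp1_LP over dgp1_CK, where 97.9% of genes are lower, and at -1.35 in ZH11_NP over ZH11_CK, where 1.66% are lower.

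The responses themselves were set against each other as ratios of ratios. The PT1 response of dgp1 was 7.30 times that of DJ (3.58 to 14.9) and that of glk1glk2 was 0.285 times that of DJ (0.0942 to 0.862). Both intervals, from a normal approximation on the log scale, leave out 1, but they cover counting error only. Of all genes that reached 5 FPKM in 1 of the 4 libraries concerned, 93.7% had a lower difference of log2 ratios between dgp1 and DJ than PT1, and 22.2% a lower one between glk1glk2 and DJ. For PT8 the values were 0.581 (0.212 to 1.596) for dgp1 and 0.373 (0.125 to 1.12) for glk1glk2, and both intervals include 1. For PHO1;2 the dgp1 response was 33.2 times that of DJ (5.74 to 192), and for PHO2 1.77 times (1.03 to 3.05). The PHO1;2 value rests on 2.67 estimated fragments in DJ_LP, 4.19 in DJ_CK and 5.48 in dgp1_CK, too few to rely on the approximation. Under own read totals the PHO2 log2 ratios were 0.20 in dgp1 and -0.31 in DJ, against 0.09 and -0.69 as deposited. The PHO2 interval was not recomputed under that scaling. All of these ratios of ratios share the DJ pair, so they are not independent of each other.

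Under normal supply the dgp1 mutant differed from DJ in 1 of 5 genes tested, against 30.2% of all 14557 genes tested (16.1% higher and 14.1% lower). PT4 was 5.05-fold lower in dgp1_CK than in DJ_CK (1.27 to 26.1). PT1 stood at 0.715 times its DJ_CK level (0.335 to 1.58), PT8 at 1.52 times (0.538 to 5.29), PHO1;2 at 0.598 times and PHO2 at 0.849 times, none of them called. Scaled to own read totals, the share of higher among all called genes was 34.9%, against 53.3% as deposited, and PT4 kept its call.

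The glk1glk2 mutant differed from DJ under normal supply in 3 of 5 genes tested, against 58.7% of all 15533 genes tested (27.4% higher and 31.3% lower). PT8 was 8.50-fold higher in glk1glk2_CK than in DJ_CK (2.94 to 29.9). PT4 and PHO1;2 were at 0 in glk1glk2_CK and counted as lower, but their DJ_CK levels of 9.77 and 5.19 FPKM lie under what 3 fragments would give in glk1glk2_CK, so no fold is given. The PHO1;2 call is lost under own read totals, where DJ_CK falls to 4.90 FPKM. PT1 stood at 1.95 times its DJ_CK level (0.725 to 5.02) and was called higher only when scaled to own read totals (log2 ratio 1.33). PHO2 was 0.847 times its DJ_CK level, and its log2 ratio turned to 0.16 under that scaling. The share of higher among all called genes was 59.0% under that scaling, against 46.7% as deposited. The leaf marker sum was 5447 FPKM in glk1glk2_CK against 19771 in DJ_CK, and its part in the higher PT8 level was not tested.

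On low phosphate PT1 was 5.22-fold higher in dgp1_LP than in DJ_LP (4.76 to 5.74) and PHO1;2 19.8-fold higher (6.31 to 111). The PHO1;2 call is lost with a pseudocount of 5 and under own read totals, where dgp1_LP falls to 4.41 FPKM. PT8 at 0.886 times (0.765 to 1.03) and PHO2 at 1.503 times (1.28 to 1.78) were not called, and under own read totals PHO2 stood at a log2 ratio of 0.04. These 2 of 4 genes tested compare with 34.3% of all 14814 genes tested (20.9% higher and 13.4% lower). Scaling changed the share of higher calls among all genes here to 32.1%, against 60.9% as deposited. The leaf marker sum was 47691 FPKM in dgp1_LP against 9403 in DJ_LP, and its part in these differences was not tested.

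On low phosphate PT8 was 3.17-fold higher in glk1glk2_LP than in DJ_LP (1.98 to 4.87). PT1 stood at 0.556 times its DJ_LP level (0.241 to 1.10) and PHO2 at 1.41 times (0.575 to 2.92). PT8 was thus the 1 gene called of 3 tested, against 49.5% of all 15352 genes tested (23.5% higher and 26.0% lower). Its higher level in glk1glk2 was therefore seen in both phosphate states, each time in 1 pair of libraries. The 2 pairs share no library, but they share 1 normalized table, and the glk1glk2 libraries are the shallowest in it. Of all genes tested, 91.2% had a lower ratio than PT8 in glk1glk2_CK over DJ_CK. In glk1glk2_LP over DJ_LP, 85.5% did. The leaf marker sum was lower in glk1glk2 in both states, 4087 FPKM in glk1glk2_LP against 9403 in DJ_LP.

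**Figure D4:**
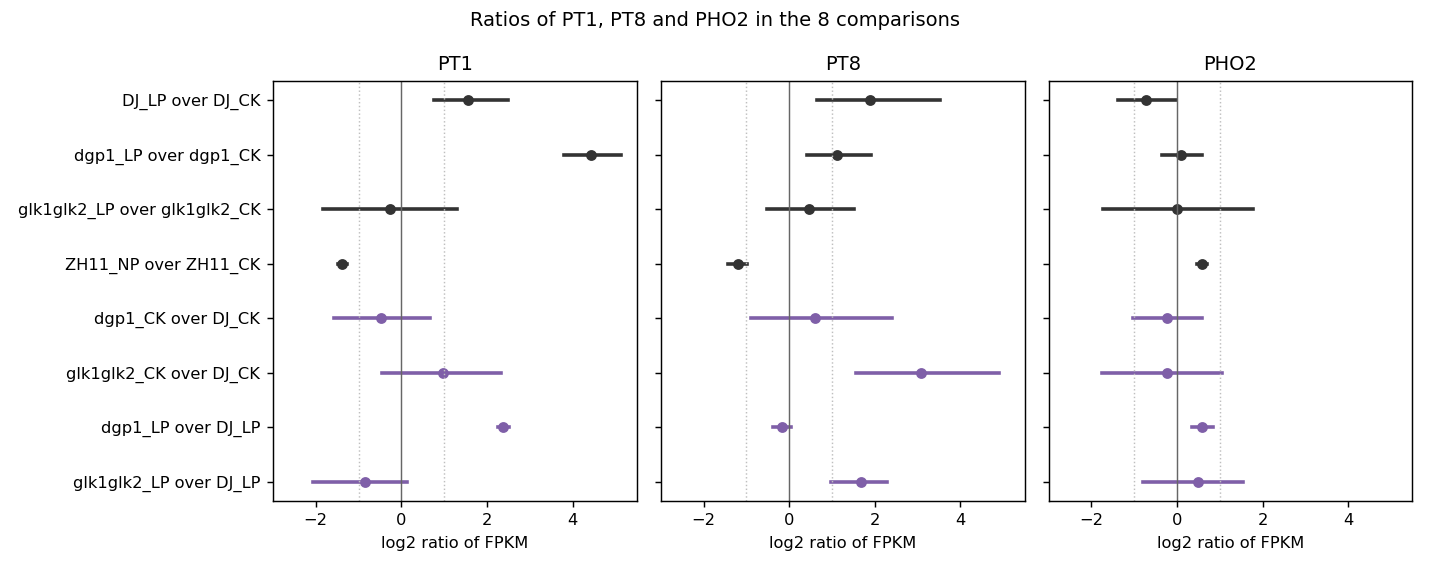
Log2 ratio of FPKM (not of FPKM + 1) with its 95% counting interval for PT1, PT8 and PHO2 in 8 comparisons, with low or no phosphate over normal supply in black, mutant over DJ in purple, and dotted lines at 2-fold. PT1 is highest in dgp1_LP over dgp1_CK (21.4-fold), PT8 in glk1glk2_CK over DJ_CK (8.50-fold), and all PHO2 points lie within 2-fold.

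Other genes of phosphate transport and its regulation were read from a list of 45, of which the 6-library table holds 44. In dgp1_LP over dgp1_CK, 5 of 31 genes tested were higher and 5 lower. In glk1glk2_LP over glk1glk2_CK, 5 of 29 were higher and 6 lower, and none of these 11 ratios left counting error. In DJ_LP over DJ_CK, 5 of 30 were higher and 10 lower, and of these 3 and 8 had an interval that left out 1. In ZH11_NP over ZH11_CK, 2 of 25 were higher and none lower at 2-fold. The calls thus took in 10 of 31, 11 of 29, 15 of 30 and 2 of 25 genes tested, beside 44.7%, 46.4%, 47.4% and 4.81% of all genes in the same comparisons. The median log2 ratio of the list was -0.09, 0.09, -0.43 and 0.08, against 0.03, -0.02, -0.05 and -0.03 for all genes tested. Scaled to own read totals, the DJ split became 8 higher and 7 lower. In the mutant over DJ comparisons, 8 of 32 genes tested were higher and 3 lower in dgp1_CK, 3 of 30 higher and 10 lower in glk1glk2_CK, 6 of 30 higher and 4 lower in dgp1_LP, and 4 of 29 higher and 8 lower in glk1glk2_LP. These calls took in 11 of 32, 13 of 30, 10 of 30 and 12 of 29 genes tested, beside 30.2%, 58.7%, 34.3% and 49.5% of all genes. Scaled to own read totals, the dgp1_LP split turned to none higher and 7 lower, that of dgp1_CK to 4 and 6, and that of glk1glk2_CK to 6 and 6.

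Among the transport genes of the list, the vacuolar carrier gene SPX-MFS3 rose in 3 of the 4 responses. It was 28.8 FPKM in dgp1_LP against 10.6 in dgp1_CK, 2.72-fold higher (1.70 to 4.66). In DJ_LP it was 32.6 FPKM against 15.5 in DJ_CK, 2.11-fold higher (1.18 to 4.19). In ZH11_NP it was 52.8 FPKM against 19.2 in ZH11_CK, 2.75-fold higher (2.54 to 2.97). It was therefore higher in ZH11_NP, where PT1 and PT8 were lower. Its relative SPX-MFS2 stood at 15.7 FPKM in ZH11_NP against 2.95 in ZH11_CK, 5.32-fold higher (4.41 to 6.46). Another relative, SPX-MFS1, went the other way in DJ, at 10.4 FPKM in DJ_LP against 29.2 in DJ_CK. SPX-MFS1 was called lower there, also under own read totals, and was not called in the other responses.

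PHO1;3, a relative of PHO1;2, fell in the same responses of the DJ table in which PT1 rose. It stood at 2.41 FPKM in dgp1_LP against 50.6 in dgp1_CK, 20.99-fold lower (15.5 to 28.4), and at 5.97 FPKM in DJ_LP against 30.8 in DJ_CK, 5.16-fold lower (3.07 to 8.42). In ZH11_NP and ZH11_CK it was under 1 FPKM. PHO1;1 was 0.0534 FPKM in dgp1_LP and 5.08 in dgp1_CK, called lower in dgp1_LP but under 5 FPKM in both when scaled to own read totals, and it was at 0 in the other 4 libraries of the table. Of the plastid and anion carriers, 3 of 5 tested fell in DJ_LP, beside 24.3% of all genes tested that were lower there. PT14 stood at 40.0 FPKM in DJ_LP against 163 in DJ_CK, 4.07-fold lower (3.20 to 5.14), and PT24 and PHT4;5 were 3.72-fold (2.48 to 5.47) and 2.60-fold (1.55 to 4.17) lower. The PHT4;5 call is lost under own read totals, at a log2 ratio of -0.95. None of the 5 tested in dgp1_LP over dgp1_CK was called.

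Genes that act on PHT1 proteins, and a related kinase gene, were also read. PHF1, which lets PHT1 proteins leave the endoplasmic reticulum, was 58.5 FPKM in dgp1_LP against 24.3 in dgp1_CK, 2.41-fold higher (1.63 to 3.72). NLA1, a ubiquitin ligase that sends PHT1 proteins to breakdown, was 7.20 FPKM in dgp1_LP against 20.01 in dgp1_CK, 2.78-fold lower (1.66 to 4.43). CK2alpha3, a kinase subunit known in rice to hold PT2 and PT8 proteins in the endoplasmic reticulum, was 3.69-fold higher in dgp1_LP (1.82 to 8.89). HD6, another kinase subunit of that type, rose 14.2-fold in dgp1_LP (5.35 to 55.7) and 4.97-fold in DJ_LP (1.97 to 17.6). PHF1, NLA1 and CK2alpha3 act on the proteins, which were not measured. HD6 was read only as a relative of CK2alpha3.

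Among the regulators, PHR2 was 20.1 FPKM in dgp1_LP against 56.1 in dgp1_CK, 2.79-fold lower (2.11 to 3.63). SPX2 was 8.61 FPKM in dgp1_LP against 30.3 in dgp1_CK, 3.52-fold lower (2.17 to 5.48). In DJ_LP, SPX4 was 2.47-fold lower (1.2501 to 4.53) and SPX6 7.12-fold lower (1.54 to 27.7) than in DJ_CK, and the SPX4 call is lost under own read totals (log2 ratio -0.87). PHR3 was 7.88 FPKM in DJ_LP and at 0 in DJ_CK, at least 1.32-fold higher against the level of 3 fragments in that library. None of the 6 regulators tested in ZH11 was called. IPS1, a long RNA that sequesters miR399, is in the ZH11 table only, at 0.311 FPKM in ZH11_NP and 0.112 in ZH11_CK, from 3 reads and 1 read. IPS2, also on the list, was 9.40 FPKM in dgp1_LP, 13.6 in dgp1_CK and 4.91 in DJ_LP, from 49, 3.10 and 6.5 estimated fragments. It was at 0 in DJ_CK and in both glk1glk2 libraries. Those libraries are shallower than dgp1_CK, where 3.10 estimated fragments stand for 13.6 FPKM. A level like the 4.91 FPKM of DJ_LP was therefore not reliably detectable in them, and the 0 says little. Under own read totals IPS2 was called higher in DJ_LP over DJ_CK, at a log2 ratio of 2.83. That call rests on the 0 in DJ_CK.

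**Figure D5:**
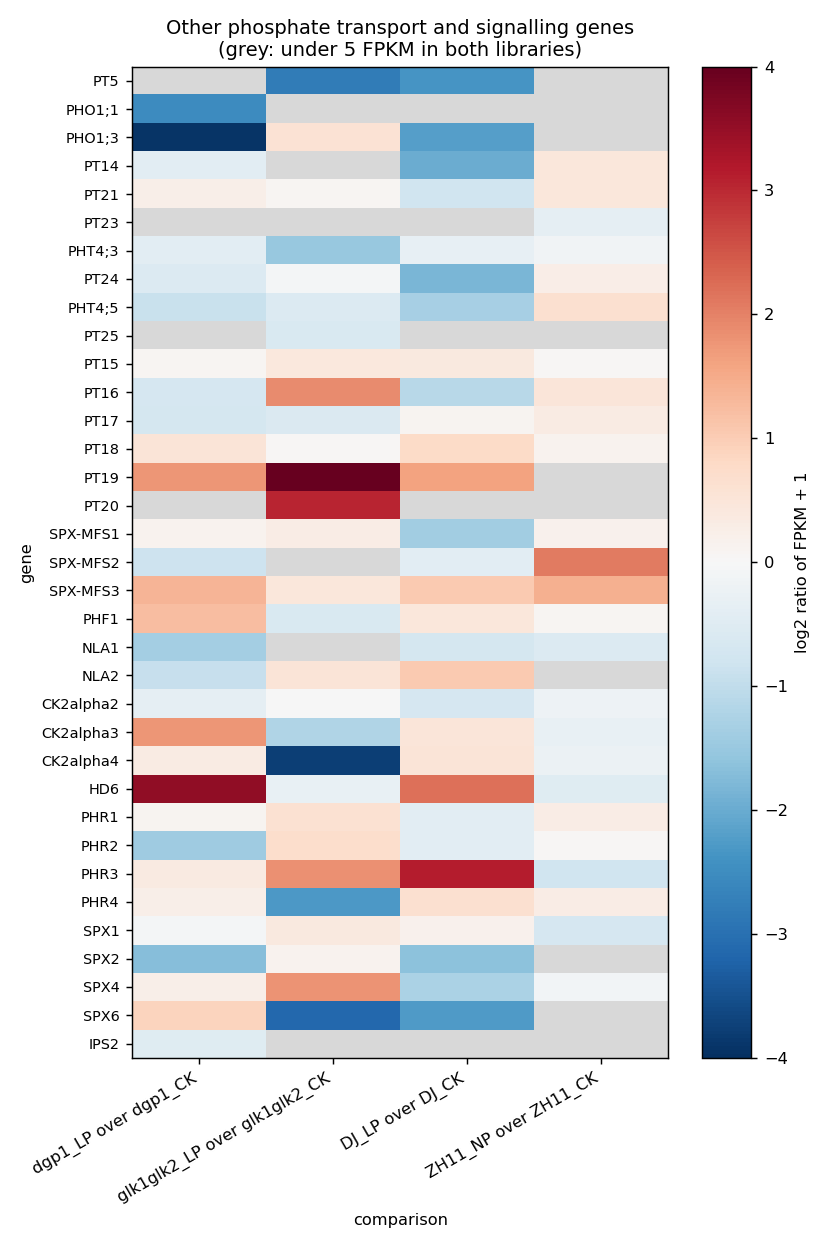
Log2 ratio of FPKM + 1 for low or no phosphate over normal supply (columns) of 35 other phosphate genes (rows), with red for higher and blue for lower, colour limits at -4 and 4, and grey where both libraries were under 5 FPKM. SPX-MFS3 is red in dgp1 (2.72-fold), DJ (2.11-fold) and ZH11 (2.75-fold), and PHO1;3 is blue in dgp1 (20.99-fold) and DJ (5.16-fold).

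Genes with the most similar pattern were ranked by Pearson's r of log2(FPKM + 1) over the 6 libraries of the DJ table, among 10491 genes (10492 for PT4 and PHO1;2) with at least 10 FPKM in 1 of them and a name or described product. The 6 points share libraries and depth, and the values are given as a description. For PT1 they were Os02g0250400, a GDSL esterase/lipase (r = 0.994), the ethylene response factor gene ERF48 (Os08g0408500, 0.991) and Os07g0581000 of the triose-phosphate transporter family (0.990). For PT8 they were Os01g0624000, a neutral ceramidase family gene (0.994), the hydrolase gene Os08g0475400 (0.990) and the exonuclease gene Os02g0465500 (0.988). For PHO2 they were the potassium channel gene TPKB (Os07g0108800, 0.979), Os05g0568600 (0.976) and annexin 9 (Os09g0394900, 0.973). For PT4 they were GATA transcription factor 5 (Os04g0539500, 0.984), Os09g0375100 (0.980) and Os03g0791800 (0.976). For PHO1;2 they were the dirigent-like gene Os11g0215100 (0.990), Os02g0117100 (0.988) and F-box protein 236 (Os04g0667700, 0.986). Of the 8 phosphate genes only PT1, PT8 and PHO2 reached 10 FPKM and could be listed. None of these was among the closest 3 of another phosphate gene.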

How the data were processed

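The authors deposited 1 table of 6 libraries and 1 of 2, each normalized on its own. The authors made the deposited FPKM values by dividing read numbers by gene length and a library factor, as the values show: each nonzero value times gene length was a whole multiple, within 0.01, of a step common to its library, although the file headers name no unit. Per the labels' protocols, libraries of total leaf RNA were made with a directional kit. The aligner, counter, strand setting and genome build are not given in the sources used here.

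Reads were recovered from the step, and the peak of the number of genes by read number, searched between 5 and 600 reads with a smoothing width chosen after the read numbers were seen, was taken as the reads of 1 fragment (48 in DJ_CK, 6 in DJ_LP, 21 in dgp1_CK, 186 in glk1glk2_CK and 151 in glk1glk2_LP). Read numbers are not independent molecules. Intervals of a ratio (95%) come from the exact conditional binomial distribution of the fragments, level intervals are exact Poisson ones, and the floor is 3 fragments. Intervals and floors cover counting error only and are approximate. Comparisons used log2 of FPKM + 1 within a table, a 2-fold threshold and a minimum of 5 FPKM, with pandas 2.3.3, numpy 2.4.6 and scipy 1.17.1. On this scale the change of low genes is understated. The whole-read recovery, the intervals and the calls were run on simulated Poisson fragments that each had the assumed number of reads. Changes were placed only in genes with many expected fragments. The estimate of reads per fragment and ratios that rest on few fragments were therefore not tested. Genes of the phosphate list, the markers and the 3 most similar genes were named by rule, with symbols matched to the names in the tables; VPE1, VPE2, SPDT and PP95 of the list and the markers RBCS2, RBCS4, LHCA1, CASP1 and RSL1 were not matched and not analysed here. The members and lists were chosen with earlier results of these data known.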

Additional observations from a re-analysis of the deposited data

Results flagged for a closer look

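PT1 and PT8 were called in opposite directions by phosphate supply in different plants. The log2 ratio of FPKM + 1 of PT1 was 4.34 for dgp1_LP over dgp1_CK and 1.52 for DJ_LP over DJ_CK, and -1.35 for ZH11_NP over ZH11_CK. That of PT8 was 1.04 for dgp1_LP over dgp1_CK and 1.75 for DJ_LP over DJ_CK, and -1.06 for ZH11_NP over ZH11_CK. Each value is from 1 pair of libraries, the ZH11 pair is in another table, and the difference between the pairs was not tested. Cultivar, phosphate level and duration differ together between the ZH11 pair and the others and cannot be told apart.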

How the results depend on the processing

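No paired analysis was possible because each group has 1 library and no test was run. Of 128 ratios of PT1, PT4, PT8, PHO1;2 and PHO2, where tested, under other pseudocounts and scalings, 113 kept their call and stayed within counting error, 7 lost their call, 1 gained one, 7 moved and none reversed. With a pseudocount of 5, the phosphate genes called fell to 1 in dgp1_LP over dgp1_CK, 1 in ZH11_NP over ZH11_CK and 1 in dgp1_LP over DJ_LP, and all genes called to 323 in ZH11_NP over ZH11_CK and 2873 in dgp1_CK over DJ_CK. Without a minimum level, which lets in genes of a few reads, phosphate genes called were 4 in dgp1_LP over dgp1_CK, 1 in glk1glk2_LP over glk1glk2_CK, 2 in dgp1_CK over DJ_CK and 3 in glk1glk2_LP over DJ_LP. All genes called without it were 10933 in dgp1_LP over dgp1_CK, 11492 in DJ_LP over DJ_CK, 1299 in ZH11_NP over ZH11_CK, 7775 in dgp1_CK over DJ_CK and 12050 in glk1glk2_LP over DJ_LP. Scaled to own read totals, 1 was called in dgp1_LP over DJ_LP, since PHO1;2 fell under the minimum. A second, lower peak stood at 24 reads in DJ_CK, 97 in glk1glk2_CK and 75 in glk1glk2_LP. Taken as 1 fragment, it gave 2 phosphate genes with an interval off 1, against 1, in glk1glk2_CK over DJ_CK and in glk1glk2_LP over DJ_LP. Depth limits most what the glk1glk2 libraries show, where 3 fragments of a 1-kb gene stand for 28.1 FPKM in LP and 31.2 in CK.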
